A study of Mus musculus with 2 samples.

Results

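The epidermal differentiation complex is a run of genes on mouse chromosome 3 that encode proteins of the skin surface and, at a few places within the run, of the hair. Its members were taken by gene symbol: every Lce, Sprr and S100a gene and 12 further symbols, from the filaggrin family (Flg, Flg2, Hrnr, Rptn, Crnn, Tchh, Tchhl1) to Lor, Ivl, Prr9, Pglyrp3 and Pglyrp4. Many probes carry an old name, so the symbols of the array were first brought up to date through a RefSeq gene table. This gave 52 members with 59 probes among the 17871 genes of the array, where the old symbols alone gave 33. A further 14 genes of the RefSeq table match the symbols, Flg, Crnn and Tchh among them, but had no probe under that name and were not analysed here. The hair members are S100a3, Tchhl1 and Prr9 (with Tchh as the fourth by definition), and the other 49 are called epidermal below.

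As a keratinocyte leaves the basal layer and dies at the surface, it replaces its membrane by the cornified envelope, a shell of proteins joined by transglutaminases. Loricrin and involucrin form the bulk and the early scaffold of this shell, small proline-rich (Sprr) proteins bridge them, and late cornified envelope (Lce) proteins are added last. The fused genes, such as filaggrin and trichohyalin, join a calcium-binding S100 part to long repeats, and the S100a proteins bind calcium and act in many cell types.

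Wounded back skin of C57BL6 mice was compared between VDR fl/fl animals that carry K14 driven Cre, which lack the vitamin D receptor in keratin 14-expressing keratinocytes, and VDR fl/fl littermates. All were 3 months old and ate a low calcium diet, the controls included. Each mouse had 2 wounds made with a 6 mm punch, and the skin was taken after 3 days with an 8 mm punch, so that it held wound, edge and nearby intact skin, and dermal cells are not targeted by the Cre. There was 1 Illumina bead array for each genotype, read here as RNA pooled from 3 mice, so no difference could be tested or checked against a replicate.

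Values are the authors' normalized intensities, and a difference is the log2 value in the knockout minus that in the control. A gene counted as detected above a floor of 172.3 (control) or 176.8 (knockout). Of all genes, 8951 were detected on both arrays, with a median difference of 0.02, and 95% of them lay from -0.59 to 0.65. The SD of the difference among probes for 1 gene was 0.14, a measure of the probes and not of the animals. The targeted gene Vdr was at 2596 in the control and 2076 in the knockout, 1.25-fold lower, and whether its probe lies in the deleted part is not known here. Markers of skin were bright on both arrays, with the basal keratin Krt14 at 34643 and 35507, the suprabasal keratin Krt10 at 26915 and 30201, and all 6 detected fibroblast genes within 1.5-fold. Of the members, 46 were detected on at least 1 array and 44 on both. Not detected were Lce1h, Pglyrp3, S100a5, Sprr2b, the pseudogene Sprr2j-ps and Sprr3.

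The 3 hair members were at least 37.3-fold lower in knockout skin, while 31 of the 42 epidermal members detected on both arrays lay within 1.5-fold. Of all genes detected on both arrays, 8407 of 8951 lay within 1.5-fold. The median difference was -5.33 over the hair members and 0.10 over the 43 epidermal members detected on at least 1 array. Of the epidermal members 10 were at least 1.5-fold higher and 1 was as much lower, where 3.56% and 2.51% of all genes detected on both arrays were. By any amount, 28 of the 42 were higher, against 53.9% of all genes. Hair genes as a class were known to be lower in these data before the members were chosen, so the hair direction is a description and no independent support. The division into 3 very low genes and a body of genes near 0 is plain in the plot of intensity by array.

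**Figure D1:**
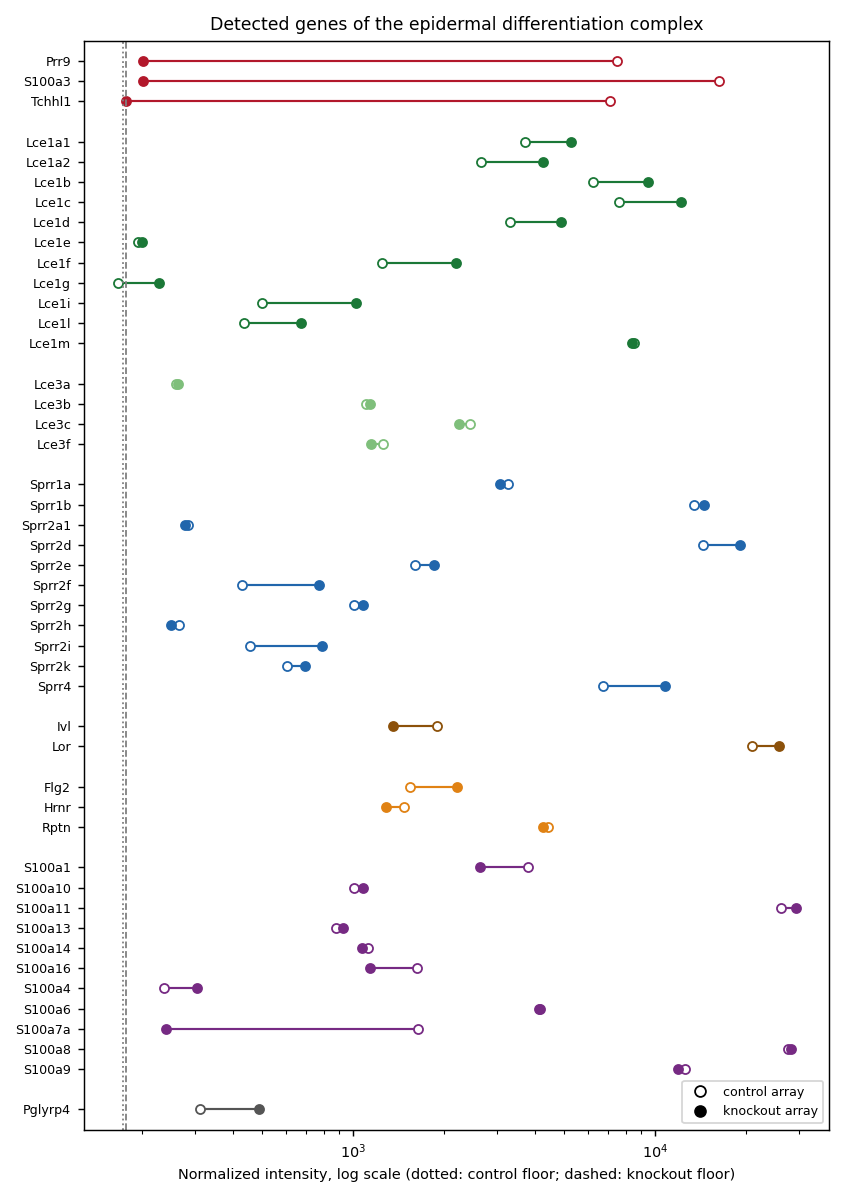
Normalized intensity (log axis) of the 46 detected members on the control array (open circles) and the knockout array (filled circles), grouped by family, with the detection floors as vertical lines. The hair members go from between 7082 and 16299 to near the floor, S100a7a goes from 1643 to 240, most Lce1 genes are higher in the knockout and the Lce3 genes nearly coincide. Intensities of different genes cannot be set against each other.

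S100a3 binds calcium and is known from the cuticle of the hair, and its intensity was 16299 in the control and 201 in the knockout. This is an 81.2-fold difference, the third lowest among the 8951 genes detected on both arrays. Prr9, a proline-rich gene that lies between loricrin and the Sprr2 group, was at 7488 and 201, or 37.3-fold lower. A difference of at least 30-fold downward was seen in 0.112% of all genes detected on both arrays, these 2 members included. Tchhl1, the relative of trichohyalin next to it in the locus, was at 7082 in the control and at 176.3, just under the floor, in the knockout. Its difference is therefore a bound of at least 40.1-fold. In the knockout all 3 stood close to the floor, so that background holds the ratios down: with background correction by limma's neqc the log2 differences were -7.70 for S100a3, -6.59 for Prr9 and -7.14 for Tchhl1.

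Keratins of the hair follicle moved with these genes. Of 9 inner root sheath genes and trichohyalin partners on the array, 7 were detected in the control, and these were lower in the knockout, 3 of them to below the floor. Their summed intensity over all 9 was 96097 and 2584. Among them the inner root sheath keratin Krt71 was at 34898 and 618. Padi3, the deiminase that modifies trichohyalin, was at 406 in the control and at least 2.30-fold lower. The transglutaminase Tgm3, which crosslinks trichohyalin, differed least, at 321 and 238. Its log2 difference of -0.43 became -0.83 with neqc. Of 13 hair shaft genes, 12 were detected in the control, and all 12 were at least 2-fold lower by value or, for the 6 below the floor in the knockout, by bound. Krt34, a keratin of the hair cortex, was at 19741 and 212, and the sums over the 13 were 68951 and 2592. Krt25, Krt74 and Foxn1 were not above the floor on either array. In bulk skin, fewer follicle cells and less RNA per cell cannot be told apart, and the part of follicle content in the values of S100a3, Prr9 and Tchhl1 was not tested.

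Sequence before the start sites of the hair members is given to show whether genes that are lower together look alike there. The windows are the 250 bases before the start site from RefSeq (GRCm38.p6), written 5′ to 3′ on the gene's strand, with matches to 3 motifs on either strand in capitals. These are the TATA box as TATAAA, its variant form ATAAAAG, which can overlap it, and the AP-1 motif TGANTCA. S100a3 has 4 such windows, of which the one with TATAAA is shown. S100a7a, which follows in the text, stands with them.
S100a3, chr3:90588313-90588562, plus strand: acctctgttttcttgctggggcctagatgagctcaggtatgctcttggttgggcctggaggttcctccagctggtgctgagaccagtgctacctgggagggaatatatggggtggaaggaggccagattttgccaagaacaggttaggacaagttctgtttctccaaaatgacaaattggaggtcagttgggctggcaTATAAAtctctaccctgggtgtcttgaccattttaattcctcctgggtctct
Prr9, chr3:92123948-92124197, minus strand: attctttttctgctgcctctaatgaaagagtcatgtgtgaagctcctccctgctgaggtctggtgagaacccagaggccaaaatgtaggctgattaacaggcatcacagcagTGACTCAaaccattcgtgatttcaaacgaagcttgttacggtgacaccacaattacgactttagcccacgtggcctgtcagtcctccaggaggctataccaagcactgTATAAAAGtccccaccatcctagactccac
Tchhl1, chr3:93468504-93468753, plus strand: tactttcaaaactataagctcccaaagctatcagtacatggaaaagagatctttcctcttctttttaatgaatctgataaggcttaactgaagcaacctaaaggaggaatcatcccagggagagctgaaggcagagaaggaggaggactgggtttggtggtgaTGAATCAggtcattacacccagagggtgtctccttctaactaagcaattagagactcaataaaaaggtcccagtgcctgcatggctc
S100a7a, chr3:90654052-90654301, plus strand: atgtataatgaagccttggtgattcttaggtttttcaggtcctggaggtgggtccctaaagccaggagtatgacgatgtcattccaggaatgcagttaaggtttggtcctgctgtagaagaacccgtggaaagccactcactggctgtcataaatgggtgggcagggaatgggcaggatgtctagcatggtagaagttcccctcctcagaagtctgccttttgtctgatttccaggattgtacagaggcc
Some motifs were shared by pairs of these windows and none of those named here by all 3 hair members. Prr9 and Tchhl1 each hold 1 AP-1 motif, at positions -138 and -87 from the start site, and AP-1 motifs stand in 6.75% of the 32851 windows of all genes. Prr9 has TATAAA at -30, and 12.4% of all windows hold it. The shown window of S100a3 has it at -52 but was picked for holding it, so this match carries no weight. In all, 2 of the 6 hair windows hold TATAAA. Between the hair members identity was 43.7% to 48.7%, inside the range of 38.3% to 53.6% for members of different families. Only the first window of each gene was aligned. For S100a3 this was chr3:90584409-90584658, so the identities do not describe the window shown. The nuclear receptor half-site AGGTCA stood in 3 of the 6 hair windows, 4 of which belong to S100a3 alone, against 14.0% of all windows. It was at -70 in the shown window of S100a3, in 1 further window of that gene, and at -81 in Tchhl1. The half-site was not particular to hair members. It also stood in 3 of 10 Lce1 windows and 3 of 10 windows of the other S100a genes, in 1 of 10 Sprr windows and in 0 of 4 Lce3 windows. The element that the vitamin D receptor is known to bind, a direct repeat of AGGTCA with 3 bases between the copies, was in 0 of 49 member windows and in 2 of all windows, which says only that these letters do not stand there.

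S100a7a was the 1 epidermal member at least 1.5-fold lower, and it stood far from the rest of its family. This gene, called S100a15 on the array, is a relative of human psoriasin, a skin protein with antimicrobial and chemoattractant activity. Its only probe read 1643 in the control and 240 in the knockout, 6.86-fold lower. Of all genes detected on both arrays, 0.905% reached 2-fold lower, and S100a7a was the 23rd lowest of the 8951. Its neighbours on either side were level, S100a6 at 4119 and 4150.0 and S100a8 at 27568 and 28157. With neqc the log2 difference went from -2.78 to -3.70. Among hair shaft genes detected on both arrays the log2 differences ran from -6.54 in Krt34 to -2.83 in Krt84, which was at 1645 and 232. The part of follicle content in the value of S100a7a was not tested.

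The other detected S100a genes, 10 in number without S100a3 and S100a7a, were all within 1.5-fold. S100a1, best known from striated muscle, was at 3801 and 2624, and S100a16, a widely expressed relative, at 1625 and 1133. Both were just short of 1.5-fold lower and passed it when the raw signal was scaled to equal medians, with log2 differences of -0.62 each. The partners of calprotectin, S100a8 and S100a9, which neutrophils and wound keratinocytes make in quantity, were at 27568 and 28157 and at 12528 and 11928. Neutrophil genes outside this family were mostly within 1.5-fold too. Of 12 detected on both arrays, 9 were higher and 3 lower with a median of 0.14, and only the receptor Trem1, at 584 and 883, passed 1.5-fold. Of all genes, 53.9% were higher by any amount and 3.56% by at least 1.5-fold. The 3 lower neutrophil genes were Retnlg at 3492 and 2751, Ltf at 216 and 186, and Il1r2 at 1223 and 1141. Summed over 17 neutrophil genes the intensity was 25157 and 27531, of which Hdc alone gave 10556 and 12502. Ngp, Mmp8, Fpr1 and Elane were not above the floor. S100a4, known from fibroblasts and leukocytes, was at 236 and 304, a log2 difference of 0.37 that became 0.72 with neqc. Beside it, fibroblast genes summed to 38168 and 43111, with Dcn at 16383 and 17098, Col1a1 at 9086 and 11691 and Postn not above the floor. Of 13 macrophage genes 12 were higher, against 53.9% of all genes. The part of either cell type in the value of S100a4 was not tested.

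The remaining S100a genes differed by at most 0.16 on the log2 scale. S100a6, a protein of growing cells, was at 4119 and 4150.0. S100a10, which pairs with annexin A2, was at 1008 and 1074, and Anxa2 itself at 25323 and 27206. S100a11, a substrate of transglutaminase in the envelope, was at 26159 and 29191. S100a13, which takes part in secretion without a signal peptide, was at 879 and 923, and S100a14 at 1117 and 1068. For S100a6, S100a10 and S100a13 the sign turned when the raw signal was scaled to equal medians, so no direction is given for them. Of 6 detected S100 binding partners, Anxa2 among them, all were within 1.5-fold, as were 8407 of the 8951 genes detected on both arrays. Anxa6, another annexin, was at 3533 and 3793, Anxa11 at 3850.1 and 3437, and the calprotectin receptor Tlr4 at 330.4 and 329.3.

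Among the Lce genes the Lce1 genes were higher in the knockout and the Lce3 genes were not. In human skin LCE1 genes are known from undisturbed epidermis and LCE3 genes from injured or inflamed epidermis. Of 10 Lce1 genes detected on both arrays 9 were higher and 6 passed 1.5-fold, where 53.9% and 3.56% of all genes did. Their median was 0.62, with an SD of 0.32 over genes. The 4 detected Lce3 genes lay between -0.13 and 0.04, with a median of -0.05. Splitting the family this way follows the gene names but was done after the values were seen.

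The bright Lce1 genes differed by similar amounts. Lce1a1 was at 3705 and 5284, Lce1a2 at 2646 and 4247, and Lce1d at 3306 and 4876. Lce1b was at 6222 and 9484 and Lce1c at 7570.0 and 12223. These 5 genes were 1.43-fold to 1.61-fold higher and lie close together in the locus. Lce1f, a little further on, was at 1247 and 2189, or 1.76-fold higher. Lce1i was at 499 and 1022, the 1 epidermal member to reach 2-fold higher, as did 0.737% of all genes detected on both arrays. Lce1l was at 437 and 673. Lce1g was detected in the knockout only, at 227, at least 1.32-fold higher. The exceptions were Lce1e, near the floor with 194 and 199, and Lce1m, at 8528 and 8403. Lce1m lies apart from the other Lce1 genes, beyond the Lce3 group.

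The Lce3 genes showed no common direction. Lce3b was at 1106 and 1138, and its other probes at 1009 and 1102 and at 676 and 687. Lce3c was at 2430.1 and 2244, Lce3f at 1256 and 1148, and Lce3a at 259 and 263. For Lce3a and Lce3b the sign turned with the raw signal scaled to equal medians, where all 4 were lower.

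How many Lce1 genes pass 1.5-fold depends on the scaling between arrays, while their distance from other genes does not. With the raw signal scaled to equal medians 3 of 10 passed, against 2.23% of all genes. Unscaled, 2 passed, against 1.46%, and with neqc 6 passed, against 7.47%. Measured from the median of all genes, the Lce1 median was 0.60 higher in the authors' values, 0.57 higher with the raw signal and 0.63 higher with neqc. In each of these settings 9 of the 10 lay above the median of all genes. The Lce1 genes are close copies, probe sequences were not used here, and how far their probes read each other's transcripts was not tested, so these are not independent values.

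Windows of Lce1c and Lce1d, both higher in the knockout, and of Lce1m, which was not, are set side by side to show what the copies share before their start sites, with capitals as above.
Lce1c, chr3:92678997-92679246, plus strand: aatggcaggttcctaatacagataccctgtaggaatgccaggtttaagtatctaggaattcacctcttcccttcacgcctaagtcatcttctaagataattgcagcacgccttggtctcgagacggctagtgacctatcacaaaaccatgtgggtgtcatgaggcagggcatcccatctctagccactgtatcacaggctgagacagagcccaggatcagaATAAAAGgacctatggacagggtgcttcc
Lce1d, chr3:92687211-92687460, minus strand: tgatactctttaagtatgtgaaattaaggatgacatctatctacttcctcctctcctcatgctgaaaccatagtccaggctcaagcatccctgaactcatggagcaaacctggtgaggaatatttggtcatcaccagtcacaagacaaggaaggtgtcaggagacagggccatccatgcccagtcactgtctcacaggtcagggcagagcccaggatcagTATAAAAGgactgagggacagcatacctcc
Lce1m, chr3:93019062-93019311, minus strand: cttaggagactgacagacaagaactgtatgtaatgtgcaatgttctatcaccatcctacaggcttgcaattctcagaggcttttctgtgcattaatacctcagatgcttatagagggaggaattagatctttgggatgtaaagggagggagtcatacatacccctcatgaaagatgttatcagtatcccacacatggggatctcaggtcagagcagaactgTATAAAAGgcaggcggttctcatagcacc
The form ATAAAAG stood in 8 of the 10 windows of detected Lce1 genes, at -29 or -28, and in 3 of 4 Lce3 windows, where 4.83% of all windows hold it. Lce1m carries it, as does Lce1e, which was level, and the windows without it are those of Lce1a1 and Lce1b, which were higher. AP-1 motifs stood in 0 of these 14 windows. Identity among Lce1 windows other than that of Lce1m ran from 48.2% to 85.6% with a median of 64.8%. Lce1m matched the others at 47.4% to 50.4%, within the range of unrelated members. Lce1l was also at 48.2% to 50.9% with the other Lce1 windows and was 1.54-fold higher. Whether identity of the windows goes with the difference between arrays was not tested.

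Sprr genes were mixed, with 3 of 11 at least 1.5-fold higher, none as much lower and a median of 0.20. Of all genes 3.56% were as much higher and 2.51% as much lower. Sprr2f was at 428 and 773, 1.81-fold higher, and Sprr2i at 456 and 789, 1.73-fold higher. Sprr4 was at 6700.3 and 10822, or 1.62-fold higher. These 3 passed 1.5-fold with the raw signal scaled to equal medians as well. Sprr2d, at 14373 and 19062, was 1.33-fold higher. The rest of the family was close between the arrays: Sprr1b, which stressed and wounded keratinocytes induce, was at 13502 and 14530.1, and Sprr1a at 3249.5 and 3070.5.

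The other Sprr2 genes differed by at most 1.15-fold. Sprr2e was at 1605 and 1849.7 and Sprr2k at 604 and 695. Sprr2g was at 1004 and 1076, Sprr2h at 265 and 250, and Sprr2a1 at 284 and 277. Sprr2g turned its sign with the scaled raw signal and Sprr2a1 with the mean of its probes. As with Lce1, the Sprr2 genes are near copies and their probes may share signal, which was not tested.

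Sprr2f, which was higher, and Sprr2h, which was level, are shown because both carry the motifs typical of the family.
Sprr2f, chr3:92364937-92365186, plus strand: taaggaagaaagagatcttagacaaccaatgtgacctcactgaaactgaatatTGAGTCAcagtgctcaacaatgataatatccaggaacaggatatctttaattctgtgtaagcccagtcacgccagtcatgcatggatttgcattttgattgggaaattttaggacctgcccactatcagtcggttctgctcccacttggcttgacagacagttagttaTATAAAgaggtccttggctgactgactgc
Sprr2h, chr3:92385435-92385684, plus strand: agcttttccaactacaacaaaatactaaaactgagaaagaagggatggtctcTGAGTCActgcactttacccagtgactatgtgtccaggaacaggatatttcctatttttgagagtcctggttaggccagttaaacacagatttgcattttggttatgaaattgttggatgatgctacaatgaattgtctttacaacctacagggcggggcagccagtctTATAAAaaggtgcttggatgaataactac
Each has TATAAA at -29 and an AP-1 motif, at -197 in Sprr2f and -198 in Sprr2h. Of 10 Sprr windows of detected genes 8 hold TATAAA and 8 hold the AP-1 motif, against 12.4% and 6.75% of all windows, and the windows of Sprr2a1 and Sprr4 hold neither. Sprr2g has no window in the table. The windows of Sprr2f and Sprr2h were 56.1% identical. Both genes were picked for holding these motifs, so the shared letters carry no weight, and a match is not a site of binding. Whether the motifs go with the differences between arrays was not tested.

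The envelope proteins and fused genes outside these families differed by less than 1.5-fold and in both directions. Loricrin (Lor) was at 20984 and 25788, and involucrin (Ivl) at 1903 and 1354, 1.40-fold lower. Flg2, the filaggrin relative of the horny layer, was at 1541 and 2207, 1.43-fold higher. Hornerin (Hrnr), another such relative, was at 1474 and 1281, and repetin (Rptn) at 4418 and 4253, with a second probe at 961 and 823. Of the 3 measured epidermal fused genes (Flg2, Hrnr and Rptn), 1 was higher and 2 were lower, with a median of -0.05.

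Pglyrp4, a peptidoglycan recognition protein that kills bacteria, was the remaining member past 1.5-fold, at 310 and 489. Its 3 probes did not agree closely. A second gave 281 and 409 and the third 207 and 225, and over their mean the log2 difference was 0.44 in place of 0.65.

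Along the locus, the nearest detected genes on either side of each hair member were within 1.5-fold. So were 8407 of the 8951 genes detected on both arrays. The neighbour S100a16, at a log2 difference of -0.52, passed 1.5-fold lower when the raw signal was scaled to equal medians. The neighbours were S100a16 and S100a4 around S100a3, loricrin and Sprr2a1 around Prr9, and Rptn and S100a11 around Tchhl1. In each case 1 gene without a probe under its name lies in between: S100a2 before S100a4, Lelp1 before Sprr2a1, and Tchh, itself a hair member, between Rptn and Tchhl1. From Lce1a1 to Lce1l, each detected gene but Lce1e was higher in the knockout. Lce1e was near the floor and level, at 194 and 199. Crct1, a cysteine-rich gene of the locus outside the definition, was at 13525 and 10910.3 and lies next to Lce1m.

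**Figure D2:**
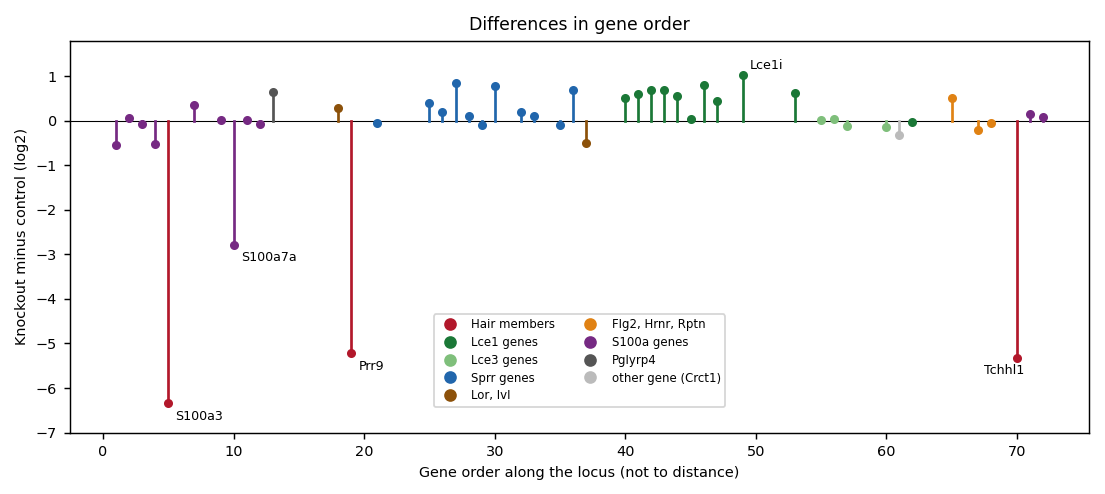
Log2 difference, knockout minus control, of each detected gene plotted by its order among the 72 genes of the locus (protein-coding genes and members), not by distance. S100a3, Prr9 and Tchhl1 reach -6.34, -5.22 and -5.33 and S100a7a -2.78, and the nearest detected genes beside them lie between -0.52 and 0.37. Genes without a value, Tchh next to Tchhl1 among them, have no point. The Lce1 genes from Lce1a1 to Lce1l form a run of positive values, from 0.04 in Lce1e up to 1.03. Lce1m, beyond the Lce3 group, is at -0.02.

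Genes that act with the members passed 1.5-fold about as often as all genes did. Of 25 cornified envelope and terminal differentiation partners detected on both arrays, 1 was at least 1.5-fold higher, 1 as much lower and 23 were within 1.5-fold, with a median of -0.01. The share higher was 4.0%, near the 3.56% of all genes, and 2.51% of all genes were as much lower. The higher gene was Casp14, a caspase of cornification that processes filaggrin, at 8281 and 13749. The lower gene was Padi1, a deiminase that citrullinates keratins and filaggrin, at 3710.2 and 229.7, 16.2-fold lower. Padi3, named above, was the 1 member of this list detected in the control only. Tgm1, the transglutaminase that joins the envelope, was at 1987 and 1527, and corneodesmosin (Cdsn), which holds corneocytes together, at 15937 and 11407.5. Those 2 were lower by under 1.5-fold, and the suprabasal keratin Krt1 was higher by as little, at 4896 and 6552.

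Of 23 regulators of the locus detected on both arrays 12 were higher and 11 lower, with a median of 0.04. Within 1.5-fold were 8407 of all 8951 genes detected on both arrays and 22 of these regulators. The exception was Ovol1, a zinc finger factor that takes part in keratinocyte differentiation, at 1663 and 839, 1.98-fold lower. Gata3, a factor of the inner root sheath and epidermis, was at 1798 and 1248, and Grhl1, a grainyhead factor, at 4497 and 3304, each short of 1.5-fold. Klf4, which directs barrier formation, was at 1134 and 1088.

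Keratinocyte markers outside the locus were within 1.5-fold, as were 8407 of the 8951 genes detected on both arrays. The 8 basal keratinocyte genes were all higher, against 53.9% of all genes. Their median was 0.13 and their summed intensity 64994 and 69087, with Krt5 at 10273.5 and 11002. Of the 8 wound-activated genes 7 were higher and 1 lower. Their median was also 0.13 and their sums 70566 and 79494, with Krt17 at 27206 and 30914.5 and Krt16 at 21382 and 24177. Macrophage genes stood further off. Of 13, 2 (15.4%) were at least 1.5-fold higher, against 3.56% of all genes: Ms4a7 at 1634 and 2782 and the Fc receptor Fcgr3 at 1539.9 and 2323.5. The 13 genes had a median of 0.34 and a summed intensity of 50954 and 63058. The part of cell content in the Lce1 and Sprr differences was not tested.

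**Figure D3:**
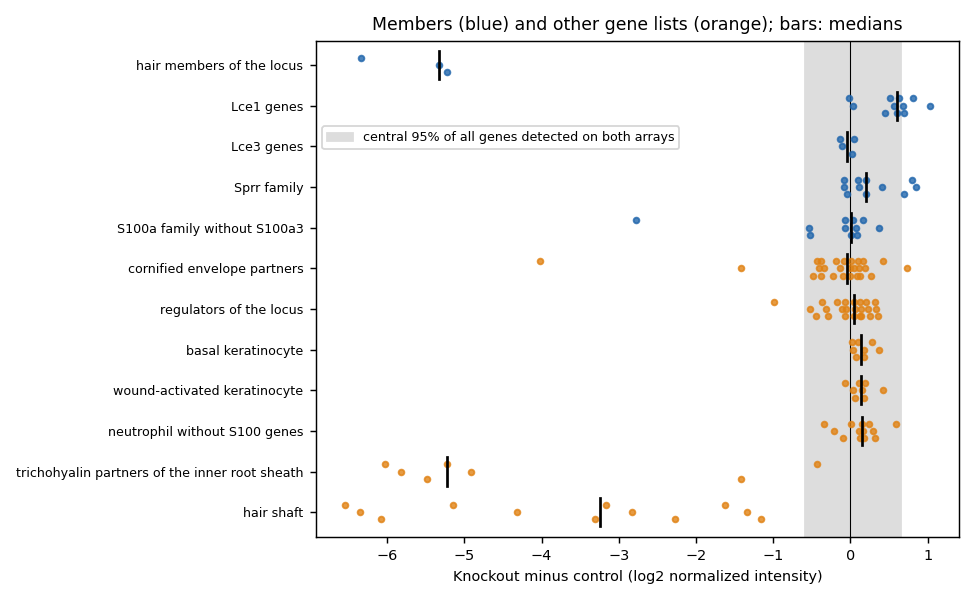
Log2 differences, knockout minus control, of genes detected on at least 1 array (points) with the median of each set (black bars), for families of the locus (blue) and other lists (orange). The grey band is the central 95% of all genes detected on both arrays, from -0.59 to 0.65. Hair members lie far left of it. Inner root sheath and hair shaft genes lie left of it by widely differing amounts, from -6.54 (Krt34) to -1.16 (Hoxc13), except Tgm3, which is inside the band at -0.43. S100a7a and Padi1 are the lowest points of their sets. Most Lce1 genes crowd the right edge of the band, while Lce1e is at 0.04 and Lce1m at -0.02.

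The scaling between the arrays changed the balance of the epidermal members. The split of 10 higher and 1 lower became 6 and 3 with the raw signal scaled to equal medians, and 3 and 4 with the raw signal left unscaled. Over all genes detected on both arrays the same settings moved the split from 319 higher and 225 lower to 200 and 285, and to 131 and 460. Without scaling the median of all genes shifted by -0.18, so differences there are relative to that shift. The hair members and S100a7a kept their direction throughout.

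**Figure D4:**
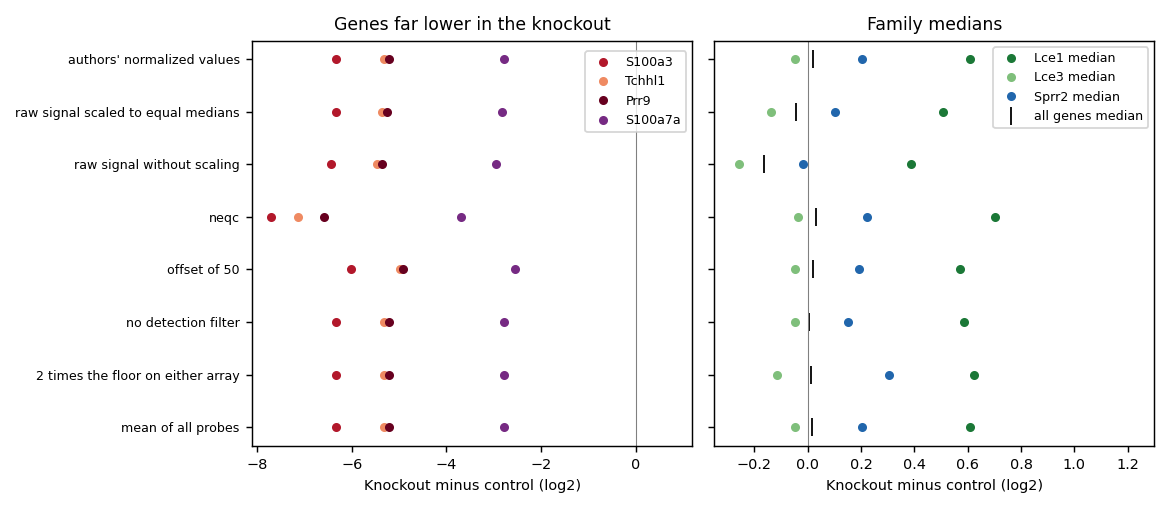
Log2 differences under each processing setting, for the genes far lower in the knockout (left) and for medians of the Lce1, Lce3 and Sprr2 genes with the median of all genes as black ticks (right). S100a7a stays between -3.70 and -2.55, and the Lce1 median between 0.39 and 0.70, to the right of the tick in every setting.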

How the data were processed

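RNA of wounded skin was hybridised to 2 Illumina mouse bead arrays, 1 per genotype, grouped by the sample titles. Scanner data were handled in GenomeStudio 2011.1, as the submitters' processing notes state, and the sources used here do not say how background was treated or arrays normalized. The authors deposited raw intensity (control 126.9 to 44195, knockout 113.8 to 39675), normalized intensity whose quantiles are shared between the arrays, and a series matrix with the same values. The deposited detection p-values do not follow the row order of the signals (Spearman 0.009 and 0.008) and were used as a set: the floor is the signal of the last of as many brightest probes as had p under 0.01, 12588 and 12161 of 25697.

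Main values are log2 of the normalized intensity without offset, with the brightest probe per gene; a gene is detected if any probe is. Symbols came from RefSeq (GRCm38.p6), which named 25376 probes. A gene detected on 1 array has a bound against the other array's floor or its own value, whichever is higher. Alternatives were raw signal scaled or unscaled, limma 3.58.1 neqc with p-values reassigned by rank, an offset of 50, other detection filters and the mean of probes. Every detected member is named; of other lists, genes past 1.5-fold (or, where none was, the 2 with the highest mean), except those of the hair lists, given by counts; further genes were chosen after their values were seen. The members and lists were chosen with earlier results of these data known. Promoter windows were found for 45 of 52 members, and the first window of each of the 41 detected ones was aligned globally with Biopython 1.88. Scripts were tested on simulated data. The number of arrays limits the precision.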

Additional observations from a re-analysis of the deposited data

How the results depend on the processing

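No paired analysis was possible because each group has 1 array. Of 14 members past 1.5-fold, all 14 kept their sign in the 7 settings tried; of all 46 detected members, 40 kept it with the raw signal scaled to equal medians, 35 with it unscaled and 45 with the mean of probes. Leaving the raw signal unscaled moved every median. Hair members went to -5.48, epidermal members to -0.084, Lce genes to 0.36, Sprr genes to -0.0205 and S100a genes to -0.21. Fused genes went to -0.26, envelope partners to -0.19, regulators to -0.15, Lce1 genes to 0.39, Lce3 genes to -0.26 and Sprr2 genes to -0.0167. The median of all genes shifted by -0.18. With the raw signal scaled to equal medians it still shifted by -0.06, so leaving out the scaling brings only part of the -0.18. The hair median was -7.14 with neqc and -4.98 with an offset of 50, which take background off or add to it. Epidermal members at least 1.5-fold higher numbered 10, but 6 with the scaled and 3 with the unscaled raw signal; those as much lower numbered 1, but 3 and 4; the cause was not tested. Without the Lce1 genes, a setting chosen after seeing the data, 4 were higher. With neqc the genes of the whole array past 1.5-fold numbered 669 higher and 425 lower in place of 319 and 225. Leaving out near-identical members by probe or protein sequence was not run, since neither sequence was used here. Dim genes, such as Lce1e and Lce1g, are limited by signal over background.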
